A study of Rattus norvegicus with 8 samples.

Results

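The flavin-containing monooxygenases are membrane enzymes of the endoplasmic reticulum that use FAD, NADPH and molecular oxygen to add an oxygen atom to nitrogen and sulfur atoms of foreign compounds, such as drugs, and of some compounds of the body. They work beside the cytochromes P450 in the first phase of drug metabolism, but draw electrons directly from NADPH. The liver is one of their main sites, although each gene has its own tissue pattern. Transcripts of 4 of these genes, Fmo1, Fmo2, Fmo4 and Fmo5, were followed in cirrhotic rat liver. They were found as the probe sets whose only gene symbol in the platform annotation was one of these names, which gave 7 probe sets of 31042 tested: 1 each for Fmo1 and Fmo5, 2 for Fmo4 and 3 for Fmo2. Other genes of the family are not analysed here.

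The livers came from male Wistar rats made cirrhotic with inhaled CCl4 (carbon tetrachloride), a solvent that kills hepatocytes. By the labels 4 rats had an antiangiogenic treatment, one meant to limit the growth of new blood vessels, and 4 had vehicle, although the series design calls these rats non-treated. All of them shared the CCl4 and drinking water with 0.3 g/L phenobarbital, itself an inducer of hepatic drug metabolism, so that both groups describe an induced, cirrhotic liver. Neither the agent and its dose nor the rats' age are given in the sources used here, and no healthy liver was compared. RNA of each liver was measured on 1 Affymetrix Rat2302 array, and each value below is a log2 intensity of 1 probe set, summarised by robust multi-array average (RMA). Differences are treated minus vehicle on that log2 scale, ± values are SDs over 4 arrays, and intervals are 95% intervals from limma. A level of 1 probe set cannot be compared with that of another, since probes differ in affinity.

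The array labelled treated 3 and the array labelled vehicle 4 were nearly identical. Their values correlated at 0.996 over all probe sets, against 0.956 to 0.988 in the 27 other pairs of arrays, and their differences had a median absolute deviation of 0.112, where other pairs gave 0.169 to 0.272. Whether 1 of them carries the wrong label, or both hold the same liver, cannot be told from the deposited values, so every mean, SD and difference over 8 arrays includes this doubt. Differences of the FMO probe sets and the other differences and list medians below are therefore also given over the 6 arrays left without these 2. The arrays were clustered on bacterial spike-in controls, and the tree was cut at 3 clusters, called hybridization groups here. The first held treated 1 and vehicle 1. The second held treated 2 and 4 with vehicle 2 and 3, and the third the near-identical pair. The labels name no hybridization batch, so these groups are inferred from the controls only. Hepatocyte markers were bright on every array, with Alb (albumin) at 14.82 ± 0.03 in treated and 14.84 ± 0.02 in vehicle livers. The log2 ratio of 3′ to 5′ control probe sets, a measure of RNA and labelling quality, was 0.288 ± 0.114 in treated and 0.301 ± 0.113 in vehicle livers for Gapdh (exact two-sided permutation p = 0.914, adjusted p = 0.914, n = 4 per group). For beta-actin it was 1.82 ± 0.060 in treated and 1.83 ± 0.094 in vehicle livers (exact two-sided permutation p = 0.857, adjusted p = 0.914, n = 4 per group).

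For 3 of the genes there was an entry in the RefSeq promoter table of assembly GRCr8, and the 300 bases from 250 before to 50 after the transcript start are shown because Fmo1 and Fmo2, neighbours on chromosome 13, took opposite courses across the arrays, while Fmo5 lies on chromosome 2. Fmo4 had no entry. The sequences are read 5′ to 3′ on the strand of the gene, at chr13:77747617-77747916 (minus strand) for Fmo1, chr13:77777485-77777784 (minus strand) for Fmo2 and chr2:187910714-187911013 (plus strand) for Fmo5. Capitals mark matches on either strand to the searched motifs.
Fmo1: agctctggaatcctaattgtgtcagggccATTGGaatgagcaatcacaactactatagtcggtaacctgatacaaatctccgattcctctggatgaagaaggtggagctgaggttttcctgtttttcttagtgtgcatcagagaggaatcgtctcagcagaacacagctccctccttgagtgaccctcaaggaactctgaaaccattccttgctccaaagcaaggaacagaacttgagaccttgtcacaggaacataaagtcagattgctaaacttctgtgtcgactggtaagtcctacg
Fmo2: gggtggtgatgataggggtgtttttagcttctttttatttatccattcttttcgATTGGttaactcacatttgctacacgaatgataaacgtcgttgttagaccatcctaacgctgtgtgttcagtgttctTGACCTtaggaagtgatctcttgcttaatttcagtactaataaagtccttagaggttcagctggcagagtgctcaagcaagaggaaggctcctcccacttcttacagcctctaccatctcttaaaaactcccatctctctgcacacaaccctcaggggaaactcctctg
Fmo5: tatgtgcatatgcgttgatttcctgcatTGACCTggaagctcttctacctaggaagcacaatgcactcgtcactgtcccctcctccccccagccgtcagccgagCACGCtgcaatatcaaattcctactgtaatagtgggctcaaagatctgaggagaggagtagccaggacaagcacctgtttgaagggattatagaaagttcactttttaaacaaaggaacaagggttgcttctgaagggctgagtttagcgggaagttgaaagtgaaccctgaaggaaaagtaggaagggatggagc
The motifs searched were the TATA box (TATAAA), the CCAAT box (CCAAT), a core of the hepatocyte factor HNF1 (GTTAAT), a nuclear receptor core (AGGTCA), a FOXA site (TGTTTNC), the core bound by the aryl hydrocarbon receptor (GCGTG) and the antioxidant response core (TGACNNNGC). None of the marked matches overlapped another. Fmo1 and Fmo2 each held 1 CCAAT match, as 37.5% of 33469 promoters of that length did. Fmo2 and Fmo5 each held 1 nuclear receptor core, found in 16.2% of promoters. Fmo5 held 1 aryl hydrocarbon receptor core, found in 29.7%. The other motifs, present in 14.2% (TATA), 7.45% (HNF1), 21.1% (FOXA) and 12.1% (antioxidant) of promoters, had 0 matches in these windows. GC content was 45.7% in Fmo1, 43.3% in Fmo2 and 48.0% in Fmo5, against a median of 51.7% over all promoters.

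The 4 genes did not move as a family. Fmo1 was higher in treated livers, Fmo4 was slightly higher on both of its probe sets, Fmo2 was lower on all 3 of its probe sets with a wide spread, and Fmo5 differed mainly through 1 treated liver. The family was selected on results of this comparison, the treated minus vehicle differences of these arrays, so they describe the members and test nothing. In limma with Benjamini-Hochberg adjustment over all 31042 probe sets, 0 of the 7 passed an adjusted p of 0.05 (adjusted p = 0.979 for each), and 0.0% of all probe sets passed. At an unadjusted p of 0.05, 1 of the 7 passed (Fmo1), against 3.93% of all probe sets, and 1 differed by at least 2-fold (Fmo1), against 1.11%. The treated and vehicle ranges overlapped for all 7 (0 without overlap), against 1.67% of all probe sets without overlap.

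**Figure D1:**
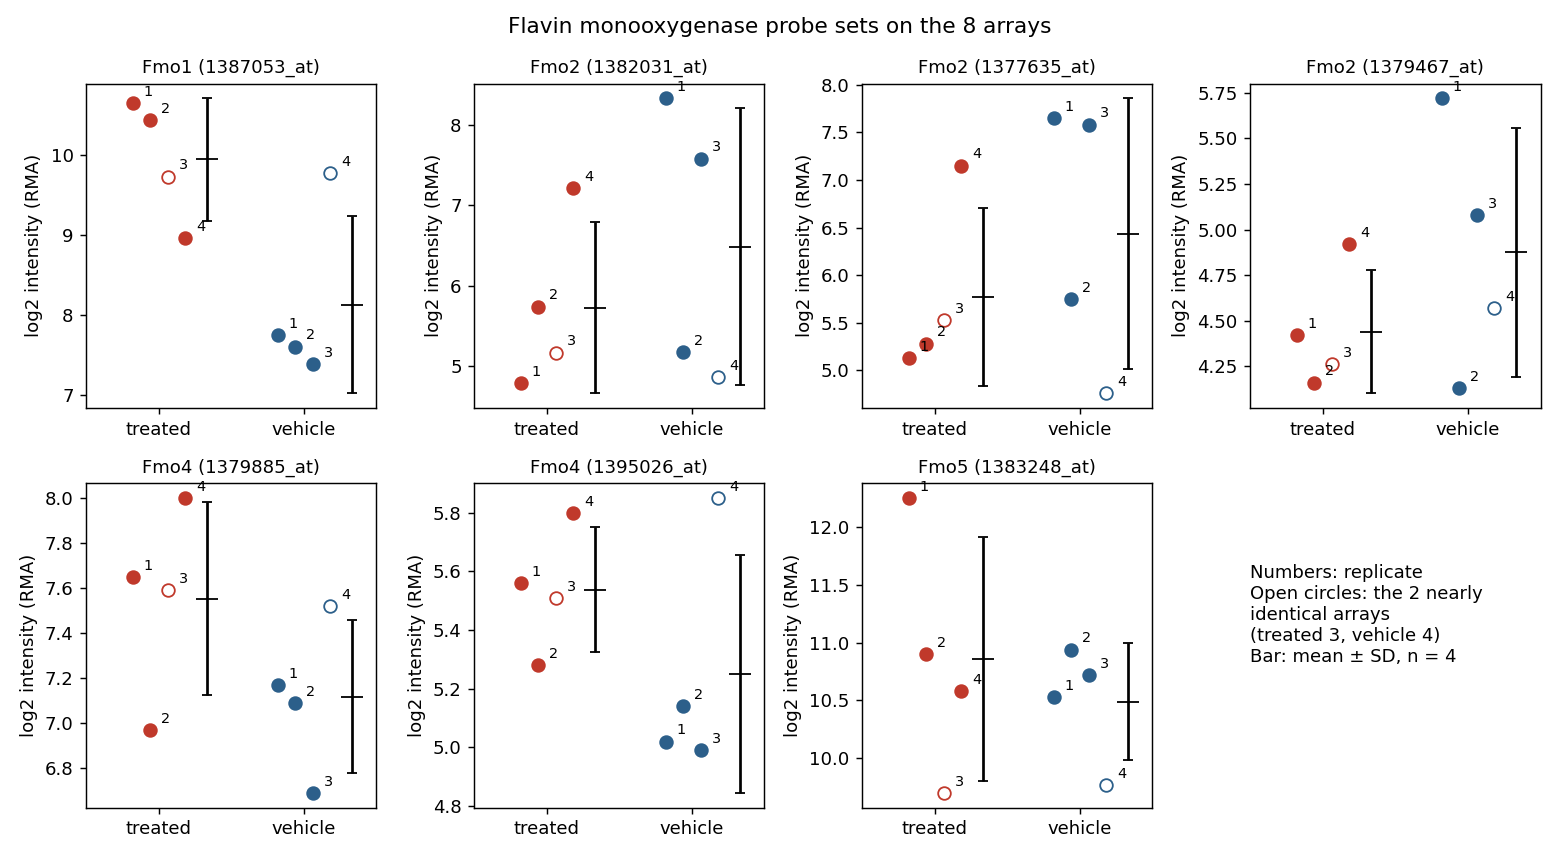
Log2 intensity (RMA) of the 7 flavin monooxygenase probe sets on each array, treated left and vehicle right, numbered by replicate, with bars for the mean ± SD (n = 4 per group) and open circles for the 2 nearly identical arrays. For Fmo1 the treated arrays lie between 8.96 and 10.65, above vehicle 1 to 3 at 7.38 to 7.75, while vehicle 4 stands at 9.77.

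Fmo1, the main monooxygenase of the family in rat liver and kidney, oxygenates a wide range of amines and sulfur compounds. Its probe set (1387053_at) read 10.65, 10.44, 9.73 and 8.96 in treated livers 1 to 4, against 7.75, 7.60, 7.38 and 9.77 in vehicle livers 1 to 4. The vehicle livers split into 3 low arrays and 1 high array, vehicle 4, which lay among the treated livers. Treated 3 minus vehicle 4, the array nearly identical to it, was −0.04. Averages were 9.94 ± 0.77 in treated and 8.13 ± 1.10 in vehicle livers, a difference of 1.82 (interval 0.56 to 3.08), or 3.53-fold. Among all 31042 probe sets this difference was the 14th highest, and the 133rd smallest by p.

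Without the near-identical arrays, Fmo1 averaged 10.02 ± 0.92 in the 3 remaining treated livers and 7.58 ± 0.19 in the 3 remaining vehicle livers. The difference was then 2.44 (interval 1.41 to 3.47), or 5.41-fold, with an adjusted p of 0.407 in limma on 6 arrays and no overlap. Without vehicle 4 alone it was 2.36 (5.15-fold, limma adjusted p = 0.14 on 7 arrays). Within the hybridization groups, Fmo1 differed by 2.89 (first), 2.21 (second) and −0.04 (the near-identical pair). All 4 treated livers lay above vehicle 1 to 3 for Fmo1, an absence of overlap, upwards or downwards, that 7.17% of all probe sets shared. Over 4 arrays per group the SD of Fmo1 was 0.77 in treated and 1.10 in vehicle livers. Over the 3 left without the near-identical arrays it was 0.92 and 0.19. Which group spread more thus depended on those arrays.

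Fmo2 is the main monooxygenase of mammalian lung, and in laboratory rats the common allele encodes a truncated protein. Its brightest probe set (1382031_at) read 4.79, 5.74, 5.17 and 7.21 in treated livers 1 to 4, against 8.33, 5.18, 7.58 and 4.86 in vehicle livers 1 to 4. Vehicle 1, vehicle 3 and treated 4 were high and the other 5 arrays low, so that both groups held high and low livers. The range over the 8 arrays was 3.55, or 11.7-fold, the widest of the 7 probe sets. Averages were 5.73 ± 1.06 in treated and 6.49 ± 1.73 in vehicle livers, a difference of −0.76 (interval −2.65 to 1.12).

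The second Fmo2 probe set (1377635_at) had the same 3 high arrays, with 5.13, 5.28, 5.53 and 7.15 in treated livers 1 to 4, against 7.65, 5.75, 7.58 and 4.76 in vehicle livers 1 to 4. The third (1379467_at), which was dimmer and spread over 1.60 only, read 4.42, 4.16, 4.26 and 4.92 in treated livers 1 to 4, against 5.72, 4.13, 5.08 and 4.57 in vehicle livers 1 to 4. These 2 probe sets differed by −0.66 (interval −2.24 to 0.92) and −0.43 (−1.17 to 0.30). Across the 8 arrays the brightest probe set correlated with the others at r = 0.96 and 0.88, and over the 6 arrays at 0.96 and 0.92. The contrast between the groups rested on single livers. For the brightest probe set it was −0.15 without vehicle 1, −0.40 without vehicle 3 and −0.45 without treated 1, but −1.31 without vehicle 4, −1.26 without treated 4 and −1.20 without vehicle 2. The second probe set gave −0.26, −0.28, −1.22 and −1.12 without vehicle 1, vehicle 3, vehicle 4 and treated 4, and the third −0.15 without vehicle 1 and −0.68 without vehicle 2. Without the near-identical arrays the 3 probe sets differed by −1.12 (−3.31 to 1.07), −1.14 (−2.81 to 0.53) and −0.47 (−1.45 to 0.51). Treated 1 minus vehicle 1 gave −3.55, −2.52 and −1.30, the second hybridization group 0.09, −0.45 and −0.06, and the near-identical pair 0.31, 0.77 and −0.31.

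Fmo4 encodes a family member of low abundance whose substrates are poorly known. Its brighter probe set (1379885_at) read 7.65, 6.97, 7.59 and 8.00 in treated livers 1 to 4, against 7.17, 7.09, 6.69 and 7.52 in vehicle livers 1 to 4. Treated 1, 3 and 4 lay above all vehicle livers, and treated 2 lay below 3 of them. The averages of 7.55 ± 0.43 in treated and 7.12 ± 0.34 in vehicle livers differed by 0.44 (interval −0.11 to 0.98), or 1.35-fold, and by 0.29 without treated 4 or without vehicle 3.

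The dimmer Fmo4 probe set (1395026_at) read 5.56, 5.28, 5.51 and 5.80 in treated livers 1 to 4, against 5.02, 5.14, 4.99 and 5.85 in vehicle livers 1 to 4. All treated livers lay above vehicle 1 to 3, as for Fmo1, while vehicle 4 was the highest array of all. The difference was 0.29 (interval −0.18 to 0.75), and 0.49 without vehicle 4. Without the near-identical arrays the 2 probe sets differed by 0.55 (−0.11 to 1.22) and 0.50 (0.11 to 0.88, limma adjusted p = 0.71 on 6 arrays). In hybridization groups 1 to 3 the brighter probe set differed by 0.47, 0.60 and 0.08 and the dimmer one by 0.54, 0.48 and −0.34. The 2 probe sets correlated at r = 0.86 over the 8 arrays and 0.92 over the 6.

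Fmo5 is a liver enzyme that, unlike its relatives, oxygenates ketones and aldehydes, as shown for the human protein, and its loss makes mice lean. Its probe set (1383248_at) read 12.25, 10.90, 9.70 and 10.58 in treated livers 1 to 4, against 10.53, 10.94, 10.72 and 9.77 in vehicle livers 1 to 4. Treated 1 stood 1.31 above the highest vehicle liver, the near-identical pair was lowest, and the other 5 arrays lay between 10.53 and 10.94. Averages were 10.86 ± 1.06 in treated and 10.49 ± 0.51 in vehicle livers, a difference of 0.36 (interval −0.74 to 1.47). Without treated 1 the difference was −0.10, without treated 3 it was 0.75 and without vehicle 4 it was 0.12. Without the near-identical arrays it was 0.51 (interval −0.49 to 1.51), and the hybridization groups gave 1.72, −0.09 and −0.07.

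**Figure D2:**
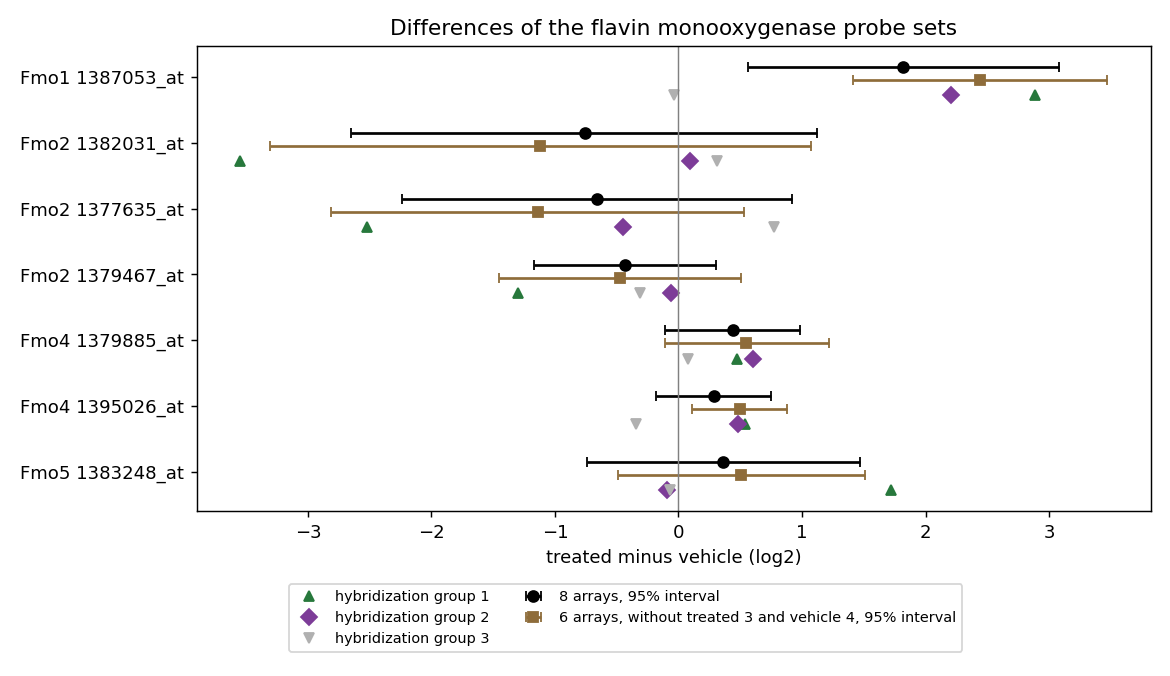
Treated minus vehicle differences (log2) of the 7 probe sets over 8 arrays and over the 6 arrays without treated 3 and vehicle 4, with 95% intervals, and within each hybridization group. Fmo1 differs by 1.82 over 8 arrays and 2.44 over 6, and its first and second hybridization groups give 2.89 and 2.21, whereas the Fmo2 intervals include 0 throughout.

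Without the near-identical arrays, 0 of the 7 probe sets passed an adjusted p of 0.05, against 0.00966% of all probe sets, and 2 passed an unadjusted p of 0.05 (Fmo1 and the dimmer Fmo4 probe set), against 6.52%. The same 2 had no overlap between the groups, against 10.3% of all probe sets, and 3 differed by at least 2-fold (Fmo1 and the 2 brighter Fmo2 probe sets), against 2.49%. Without vehicle 4 alone, 0 of the 7 passed adjustment, against 0.0354%, 3 passed an unadjusted p of 0.05 (Fmo1 and both Fmo4 probe sets), against 7.94%, and 3 differed by at least 2-fold (Fmo1 and the 2 brighter Fmo2 probe sets), against 2.5%.

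The members also differed in how they varied from liver to liver. Over the 8 arrays, Fmo1 and the 3 Fmo2 probe sets ran in opposite directions, with r = −0.65, −0.76 and −0.54 (−0.59, −0.74 and −0.50 over the 6 arrays). Fmo1 and the 2 Fmo4 probe sets ran together at r = 0.48 and 0.65 (0.42 and 0.61). Fmo5 followed none of them over the 8 arrays, with r between −0.19 and 0.17, but over the 6 arrays its r was 0.65 with Fmo1 and −0.75 with the brightest Fmo2 probe set, so its relation to the others depended on the near-identical pair. These correlations describe arrays that share treatment, cell makeup and a nearly identical pair of profiles.

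Among 8494 other genes with a mean log2 value of at least 6, the 3 most like Fmo1 over the 8 arrays were Akr1c1, an aldo-keto reductase (r = 0.991), Cyp2j4, a cytochrome P450 (0.99), and Gpt, alanine aminotransferase (0.977). Over the 6 arrays they correlated with it at 0.992, 0.989 and 0.983. Akr1c1 (1393902_at) read 9.39, 8.29, 7.49 and 6.38 in treated livers 1 to 4, against 4.30, 4.44, 4.16 and 7.32 in vehicle livers 1 to 4, the same order of treated livers as Fmo1 and the same separate place of vehicle 4. The genes most like Fmo2 were Kif21a, a kinesin motor (r = 0.99), Ncald, a neuronal calcium sensor (0.988), and C15h14orf119 (0.98). Kif21a (1381976_at) read 6.87, 7.49, 6.83 and 8.00 in treated livers 1 to 4, against 8.73, 7.04, 8.27 and 6.85 in vehicle livers 1 to 4, again with vehicle 1, vehicle 3 and treated 4 highest. Fmo4 was most like Zfp512b, a zinc finger protein (r = 0.939), Spg7, a mitochondrial protease (0.933), and Med11, a Mediator subunit (0.93). Fmo5 was most like Prxl2c (r = 0.973), Fbxw5, a ubiquitin ligase subunit (0.97), and Ifgga2l1 (0.96), which also peaked on treated 1 (10.28) and was lowest on the near-identical arrays (6.02 on treated 3 and 6.08 on vehicle 4). Each was picked as one of the highest of 8494 correlations over 8 arrays.

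Several cell type marker lists ran with or against Fmo1 and Fmo2 across the arrays. In bulk liver, fewer cells of a type and less RNA per cell cannot be told apart. Of 14 vascular endothelial markers 14 were lower in treated livers, with a median difference of −0.55 (−0.73 without the near-identical arrays) and list means of 6.31 to 6.59 in treated and 6.46 to 7.24 in vehicle livers. Their list mean ran against Fmo1 at r = −0.97 over the 8 and the 6 arrays, and vehicle 4, at 6.46 against 7.21 to 7.24 in the other vehicle livers, again stood with the treated arrays. In this list Nos3, the endothelial nitric oxide synthase, averaged 4.76 ± 0.23 in treated and 5.44 ± 0.20 in vehicle livers without overlap. Vwf, von Willebrand factor, averaged 8.17 ± 0.57 in treated and 8.43 ± 0.38 in vehicle livers. Of 8 sinusoidal endothelial markers 8 were lower, with a median of −0.82 (−1.09 without the near-identical arrays), list means of 7.39 to 7.83 in treated and 7.74 to 8.71 in vehicle livers, and r = −0.88 with Fmo1. Lyve1, a hyaluronan receptor, averaged 8.76 ± 0.37 in treated and 10.02 ± 0.87 in vehicle livers. Fcgr2b, an inhibitory Fc receptor, averaged 8.74 ± 0.46 in treated and 9.56 ± 0.24 in vehicle livers without overlap. With the vascular list mean, Fmo4 had r = −0.56 and Fmo5 −0.03 (−0.50 and −0.54 over the 6 arrays). With the sinusoidal one they had r = −0.79 and −0.11 (−0.77 and −0.56 over the 6 arrays).

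Hepatocyte markers, the list of the cell type that makes most hepatic FMO1, were higher at 5 of 17 genes with a median of −0.07. Their list means were 12.82 to 13.11 in treated and 12.99 to 13.13 in vehicle livers. Their r with Fmo1 was −0.52 (−0.49 over the 6 arrays). The median was −0.07 without the near-identical arrays too, −0.01 without treated 1, −0.12 without treated 2, −0.03 without treated 3 or treated 4, and −0.02 after median centring. Asgr1, the hepatocyte asialoglycoprotein receptor, was among the 5 higher genes and had the smallest p of the list. It averaged 10.69 ± 0.40 in treated and 10.12 ± 0.38 in vehicle livers. The 12 lower genes included Apoa1, with a difference of −0.64 (−1.38 to 0.10), and Pck1, with −0.41 (−1.03 to 0.20).

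Markers of ducts, scar and macrophages ran with Fmo2 and against Fmo1. The brightest Fmo2 probe set correlated at r = 0.87 with the mean of 7 bile duct markers, 0.83 with that of 14 stellate cell and myofibroblast markers, 0.82 with that of 10 macrophage markers and 0.79 with that of 10 lymphocyte markers (0.89, 0.85, 0.84 and 0.74 over the 6 arrays). With Fmo1 the same 4 list means had r = −0.77, −0.90, −0.73 and −0.94 (−0.75, −0.89, −0.71 and −0.94 over the 6 arrays). Bile duct list means were 5.52 to 6.68 in treated and 5.97 to 6.69 in vehicle livers, 7 of 7 genes being lower with a median of −0.29. That median was −0.44 without the near-identical arrays, −0.14 without treated 1 or treated 2, −0.57 without treated 4 and −0.17 without vehicle 1. Epcam, an epithelial adhesion molecule, averaged 9.07 ± 0.76 in treated and 9.26 ± 0.45 in vehicle livers, and the chloride channel Cftr 4.73 ± 0.38 in treated and 5.33 ± 0.76 in vehicle livers. Stellate and myofibroblast list means were 7.55 to 8.46 in treated and 8.08 to 8.99 in vehicle livers, 13 of 14 genes being lower with a median of −0.63 (−0.83 without the near-identical arrays). Col3a1, a fibrillar collagen, averaged 11.87 ± 0.61 in treated and 12.62 ± 0.62 in vehicle livers, and Myl9, a smooth muscle myosin light chain, 7.93 ± 0.06 in treated and 8.52 ± 0.37 in vehicle livers.

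Macrophage list means were 7.40 to 8.91 in treated and 8.36 to 9.19 in vehicle livers, 9 of 10 genes being lower with a median of −0.62 (−0.82 without the near-identical arrays and −0.23 without treated 1). Lyz2, lysozyme, the brightest gene of the list and that of smallest p, averaged 11.26 ± 0.41 in treated and 12.13 ± 0.90 in vehicle livers. Other macrophage markers differed little, with Cd68 at −0.14, Clec4f at −0.03 and Itgam at −0.24, and Cd163 was higher by 0.18. Lymphocyte list means were 4.47 to 4.95 in treated and 4.60 to 5.21 in vehicle livers, with 6 of 10 genes lower, a median of −0.25 (−0.31 without the near-identical arrays). These list means were dim, within or below the range of the array medians (5.16 to 5.30), a limit on the r of this list with Fmo1 and Fmo2. Ptprc, the leukocyte antigen CD45, averaged 7.31 ± 0.73 in treated and 8.31 ± 0.79 in vehicle livers, and Cd3e, a T cell receptor subunit, 4.81 ± 0.19 in treated and 5.50 ± 0.35 in vehicle livers. The part of these cell types in the FMO differences was not tested.

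Markers of other tissues where FMO genes are active differed little between the groups. Lung epithelial list means were 4.04 to 4.42 in treated and 4.00 to 4.34 in vehicle livers (6 of 6 genes higher, median 0.09, and 0.11 without the near-identical arrays), with the brightest, Ager, at 5.35 ± 0.15 in treated and 5.21 ± 0.30 in vehicle livers. Their list mean had r = −0.76 with Fmo2 and 0.67 with Fmo1 (−0.81 and 0.80 over the 6 arrays). Kidney tubule list means were 4.19 to 4.41 in treated and 4.13 to 4.45 in vehicle livers (3 of 7 genes higher, median −0.04, and 0.02 without the near-identical arrays), with Lrp2, an endocytic receptor, at 6.38 ± 0.54 in treated and 6.33 ± 0.31 in vehicle livers, and Aqp2, a collecting duct water channel, at 4.47 ± 0.08 in treated and 4.65 ± 0.12 in vehicle livers. The kidney list mean had r = −0.85 with Fmo2 and 0.29 with Fmo1 (−0.82 and 0.06 over the 6 arrays). Lung and kidney list means were dim, below the array medians of 5.16 to 5.30. Even so, their r with Fmo2 were close in size to those of the bile duct, stellate and macrophage lists, with opposite sign. What these r reflect was not tested. Adipocyte list means were 5.94 to 6.51 in treated and 6.19 to 6.33 in vehicle livers (4 of 6 genes higher, median 0.10, and 0.13 without the near-identical arrays), with r = 0.28 with Fmo2 and −0.04 with Fmo1 (0.49 and −0.14 over the 6 arrays). Cidec, a lipid droplet protein, averaged 10.26 ± 0.24 in treated and 10.15 ± 0.30 in vehicle livers, and Lep, leptin, 4.04 ± 0.26 in treated and 3.84 ± 0.12 in vehicle livers. Adipoq and Plin1 were about as dim as Lep, at 4.04 and 4.18 in treated and 4.04 and 4.11 in vehicle livers. The lung median stayed above 0 in the 19 alternatives that gave a value, from 0.03 without vehicle 3 to 0.15 without treated 4 (0.05 without treated 3, 0.06 without vehicle 1 and 0.14 without vehicle 4). The adipocyte median stayed above 0 in 20, from 0.01 without vehicle 1 to 0.16 without treated 1 (0.02 without treated 2, 0.03 without vehicle 3 and 0.06 without treated 3). The kidney median changed sign, between −0.06 without treated 3 and 0.05 under the filters on dim probe sets (0.03 without vehicle 4).

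**Figure D3:**
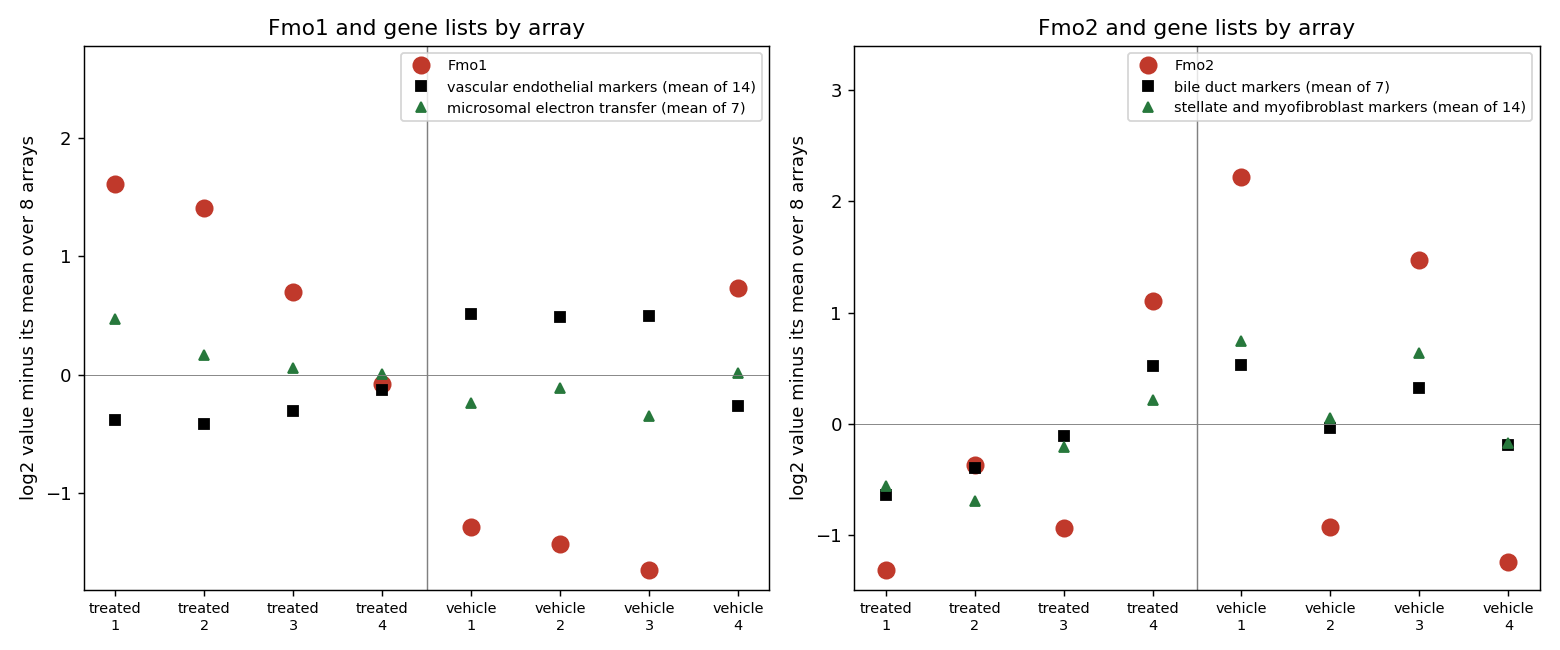
Fmo1 (left) and Fmo2 (right, brightest probe set) on each array beside list means of related genes or cell type markers, each as the log2 value minus its own mean over the 8 arrays, treated left of the line and vehicle right. Vehicle 4 stands with the treated arrays for Fmo1 and for the vascular endothelial list, while vehicle 1, vehicle 3 and treated 4 are the highest arrays for Fmo2.

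The enzymes that supply or work beside the monooxygenases leaned towards treated livers. Fmo1 differed by more, but it comes from a family selected on these differences, so that contrast tests nothing. Over all 14217 genes with 1 symbol, 51.6% were higher in treated livers and the median difference was 0.01. No gene of the lists below passed an adjusted p of 0.05 (0 genes), so their directions are descriptions. FAD synthesis and NADPH supply had 9 of 13 genes higher and a median of 0.11, also without the near-identical arrays. That median was 0.05 without treated 1 or without vehicle 4, 0.04 when all probe sets of each gene were averaged and 0.17 after median centring. Nadk, the cytosolic NAD kinase, averaged 10.33 ± 0.08 in treated and 10.09 ± 0.18 in vehicle livers, and the mitochondrial Nadk2 11.31 ± 0.30 in treated and 10.96 ± 0.42 in vehicle livers. Transketolase (Tkt) and the transhydrogenase Nnt differed by −0.17 (−0.46 to 0.12) and −0.09 (−0.38 to 0.20), or −0.24 and −0.14 without the near-identical arrays. The list named microsomal electron transfer was higher at 7 of 7 genes with a median of 0.30 (0.40 without the near-identical arrays). Its list mean followed Fmo1 at r = 0.90. Not every gene of this list is a microsomal electron carrier, since Ephx1 (difference 0.20) is an epoxide hydrolase and Cyb5b is mitochondrial. Cyb5a, cytochrome b5, averaged 13.39 ± 0.12 in treated and 13.09 ± 0.15 in vehicle livers. Its groups barely missed overlap, with treated 3 at 13.22 and vehicle 2 and vehicle 4 at 13.21. Cyb5b, its mitochondrial relative, averaged 9.20 ± 0.56 in treated and 8.63 ± 0.17 in vehicle livers.

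Other oxidoreductases of foreign compounds that are not cytochromes P450 were higher at 18 of 23 genes, with a median of 0.25 (0.34 without the near-identical arrays). Aox1, aldehyde oxidase, averaged 12.28 ± 0.29 in treated and 11.29 ± 0.76 in vehicle livers, a difference of 0.99 (0.22 to 1.77, or 1.33 without the near-identical arrays), and the quinone reductase Nqo1 11.10 ± 0.36 in treated and 10.30 ± 0.67 in vehicle livers. Cbr3, a carbonyl reductase, and Paox, polyamine oxidase, differed by −0.30 (−0.84 to 0.23) and −0.27 (−0.85 to 0.32), or −0.34 and −0.35 over the 6 arrays. Sulfur amino acid and taurine enzymes, whose products include substrates of FMO1, were higher at 16 of 22 genes with a median of 0.31, or 0.43 over the 6 arrays, 0.17 without treated 1 and 0.20 without vehicle 3. Msra, methionine sulfoxide reductase, averaged 8.25 ± 0.32 in treated and 7.69 ± 0.31 in vehicle livers, and Ethe1, a persulfide dioxygenase, 9.13 ± 0.40 in treated and 8.47 ± 0.39 in vehicle livers. The sulfide oxidase Sqor differed by −0.52 (−1.32 to 0.28) and the aspartate aminotransferase Got1 by −0.87 (−2.22 to 0.48), or −0.67 and −1.17 over the 6 arrays. Choline, carnitine and methylamine enzymes were higher at 11 of 13 genes with a median of 0.23, or 0.31 over the 6 arrays, 0.13 without treated 1 and 0.15 without vehicle 3. Aldh7a1, which oxidises betaine aldehyde, averaged 11.94 ± 0.31 in treated and 11.54 ± 0.18 in vehicle livers, and Dmgdh, dimethylglycine dehydrogenase, 10.94 ± 0.51 in treated and 10.47 ± 0.41 in vehicle livers. Choline kinase (Chka) differed by −0.21 (−0.72 to 0.30) and Pcyt1a, of phosphatidylcholine synthesis, by −0.04 (−0.46 to 0.38), or −0.22 and −0.09 over the 6 arrays.

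Regulators of hepatic drug metabolism were higher at 19 of 23 genes with a median of 0.22 (0.31 without the near-identical arrays). Ahr, the aryl hydrocarbon receptor, averaged 7.09 ± 0.31 in treated and 6.36 ± 0.44 in vehicle livers. The difference was 0.73 (0.19 to 1.26, or 0.94 without the near-identical arrays). Its groups narrowly missed overlap, with treated 1 at 6.84 and vehicle 4 at 6.78. Rxra, the partner of many nuclear receptors, averaged 7.07 ± 0.25 in treated and 6.54 ± 0.36 in vehicle livers. The xenobiotic receptor Nr1i2 and the coactivator Ppargc1a differed by −0.32 (−1.04 to 0.41) and −0.49 (−1.84 to 0.86), or −0.34 and −0.78 over the 6 arrays. Another xenobiotic receptor, Nr1i3, had the largest difference of the list, 1.15 (0.12 to 2.18, or 1.54 over the 6 arrays), with overlapping groups. The list named phenobarbital-inducible genes was higher at 7 of 9 genes with a median of 0.30, or 0.39 over the 6 arrays, 0.08 without vehicle 1 and 0.58 without vehicle 2. Whether phenobarbital induces each of them, such as Cyp2b3 (difference 0.43), was not tested, as all rats received it. The list held 16 genes, and Cyp2b1, Cyp2b2 and Cyp2c6 were among those without a probe set of 1 symbol. The carboxylesterase Ces2c averaged 10.55 ± 0.93 in treated and 9.47 ± 0.43 in vehicle livers, and the cytochrome P450 Cyp3a2 13.39 ± 0.38 in treated and 12.02 ± 1.43 in vehicle livers. Gadd45b, a stress gene, differed by −0.72 (−2.48 to 1.03, or −0.96 over the 6 arrays), and the sulfotransferase Sult2a1 read 2.80 ± 0.02 in treated and 2.81 ± 0.13 in vehicle livers, near the lowest values of the arrays. In these 7 lists 13 genes had an unadjusted p under 0.05, all of them higher in treated livers, of 110 measured entries. Over all 14217 genes, 277 (1.95%) were higher and 398 (2.8%) lower at that p. The lists were chosen with earlier results of these data known, so these counts describe their genes and test nothing.

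**Figure D4:**
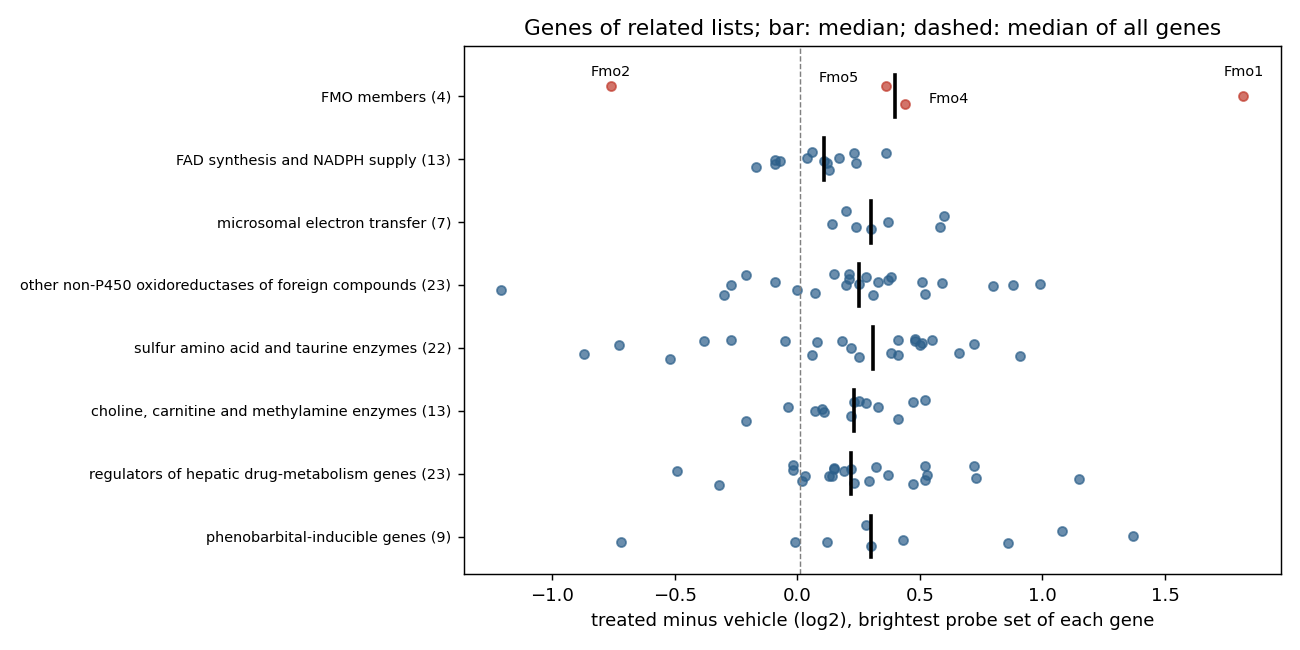
Treated minus vehicle difference (log2) of the brightest probe set of each gene, for the 4 flavin monooxygenases and 7 lists of related genes, with the number of measured genes in parentheses, bars at list medians and a dashed line at the median of all genes. Fmo1, of a family selected on these differences, lies at 1.82, to the right of every gene in the lists. Fmo2 at −0.76 lies among their lowest.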

How the data were processed

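Per the submitters' processing notes, the authors used affy and RMA (background correction, quantile normalization, probe summary), with versions and settings not given in the sources here. The deposited values are log2 intensities, by their range of 2.41 to 14.85, and were used as deposited. RMA draws differences at low intensity towards 0. Without the 57 control probe sets 31042 were tested, and 0 array columns were unused. Groups and replicate numbers come from the sample titles. Nothing in the labels says whether the samples of a group were bred or processed separately, beyond 4 rats per group in the design text. The number of arrays limits precision.

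Symbols came from the platform annotation (20826 probe sets with 1 symbol, 436 with several, 9780 with none). Of the former, 20758 matched the RefSeq gene table of GRCr8, and 0 symbols changed. The fit was limma 3.58.1 in R 4.3.3 (lmFit, eBayes, no covariates) on the 8 arrays, with Benjamini-Hochberg adjustment over all probe sets. Its code was run on simulated data with independent noise, capped below the group SDs of the Fmo1 and Fmo2 probe sets. That check therefore does not cover their spread or the near-identical arrays. Each gene in a list was represented by its brightest probe set. Lists were described by counts and medians.

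Named genes were all member probe sets, the 3 genes most correlated with each member, the 2 higher and 2 lower genes of smallest p in each related list, and the brightest and smallest-p gene of each marker list. In the microsomal list 0 genes were lower, so this rule gave only the 2 higher ones. Outside this rule, Ephx1, Apoa1, Pck1, Cd68, Clec4f, Itgam, Cd163, Adipoq, Plin1, Cyp2b3 and Nr1i3 were named to show the spread of their lists. Members, lists, the hybridization groups and the alternatives were chosen with earlier results of these data known, and the promoter motifs after the sequences were seen. Alternatives were 2 other normalizations, filters at the 40th percentile and at a mean of 6, trend and robust variances, no moderation, array weights, the replicate number, the Gapdh ratio or the hybridization group as a term, the mean of a gene's probe sets, and leaving out arrays.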

Additional observations from a re-analysis of the deposited data

Results flagged for a closer look

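Among 52 sets of 4 arrays examined (a member probe set, list mean or control ratio in 1 group), 3 held an array far from the other 3 of its group, where chance flags about 1 in 20. In the vehicle group of Fmo1 the gap between vehicle 4 and its nearest neighbour was 0.843 of the group's range. The same array stood apart low for the mean of vascular endothelial markers (0.962 of the range). For the mean of sulfur amino acid and taurine enzymes the outlying vehicle array was vehicle 3, low, at 0.839 of the range.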

How the results depend on the processing

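The difference of Fmo1 kept its direction under all 20 alternatives, between 1.57 and 2.44, with limma adjusted p between 0.14 and 1.0. Fmo2 and Fmo4 also kept theirs under every alternative that gave a value (the filter at a mean of 6 leaves out the dimmest Fmo2 and the dimmer Fmo4 probe set). The Fmo5 difference changed sign when an array was left out, with a range of −0.10 (without treated 1) to 0.75, and kept its direction otherwise. The count of probe sets at an adjusted p of 0.05 was 3 without the near-identical arrays and 0 to 11 when 1 array was left out (11 without vehicle 4). The count at an unadjusted p of 0.05, 1220 over 8 arrays, was 792 and 481 under the 2 filters, which test fewer probe sets, 2047 with array weights, 2025 without the near-identical arrays, and 538 (without treated 1) to 2885 (without treated 4) when 1 array was left out. With the replicate number as a block it was 785, and 0 probe sets passed adjustment. The labels do not say that a number marks a shared batch, so no pairing was assumed. Deviations of same-numbered arrays from their group means correlated at −0.114, 0.041, −0.124 and −0.62. These values cannot decide whether arrays were paired, since deviations within a group sum to 0 and include the near-identical arrays. The FAD and NADPH median was 0.04 when all probe sets of each gene were averaged and 0.05 to 0.13 when 1 array was left out, and that of sulfur amino acid enzymes 0.17 to 0.39. The lymphocyte median was −0.69 and −1.0 under the 2 filters, which leave 5 and 1 of its genes. The control ratio differences changed sign when single arrays were left out, between −0.051 and 0.039 for Gapdh and between −0.057 and 0.013 for beta-actin. Except where a filter removes probe sets, the cause was not tested.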
